A study of Mus musculus with 16 samples.

Results

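The Toll-like receptor genes *Tlr1* to *Tlr9* and the adaptor gene *Myd88* were examined in the seminal vesicle (SV) of the pubertal mouse. These 10 genes were chosen by name out of the 31274 genes for which expression was given. All 10 were present, and all 10 were among the 15988 genes tested, which had a mean above 1 FPKM, a fragment count divided by transcript length and by the fragments mapped in a sample, in at least 1 group. For *Tlr1*, *Tlr6*, *Tlr7*, *Tlr8* and *Tlr9* the mean was above 1 only in the WT-DES group, so that these 5 genes could be tested only because they were high there and had to differ.

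RNA was sequenced from SVs of 5-week-old male mice on the C57BL/6 strain, in 4 groups of 4 samples. WT-veh and WT-DES were wild type, and αERKO-veh and αERKO-DES were null for *Esr1*, which encodes oestrogen receptor α (ERα), in the whole body. In the DES groups each pup received diethylstilbestrol, a synthetic oestrogen, in corn oil under the skin at 2 µg per day from day 1 to day 5 of life, and the veh groups received corn oil alone. The aim was to learn which expression changes persist at puberty after neonatal DES and which of them need ERα. Wild-type pups came from purchased pregnant females and αERKO pups from matings of heterozygotes, so genotype and origin of the litter cannot be told apart. The methods describe RNA from individual mice in 3 groups and from 3 pools of mice in WT-DES, where 4 samples were given, and the labels do not say how these samples relate to the pools. The n of 4 in WT-DES may therefore exceed the number of distinct pools. P-values therefore measure the spread between these samples only.

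*Esr1* ranged from 0.91 to 1.75 FPKM over the αERKO samples of both treatments, from 2.81 to 4.55 over WT-veh and from 8.74 to 19.6 over WT-DES, so the genotypes did not overlap. The epithelial gene *Epcam* was present in all 16 samples, at 84.5 to 180 FPKM (84.5 to 126 in WT-DES and 129 to 180 in the other groups). The files hold no fragment counts, so depth per sample is unknown. The sum of FPKM was lowest in WT-DES, at 375207 to 437619 against 479045 to 652708 in the other samples.

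Toll-like receptors recognise molecular patterns of microbes, and of damaged cells, and are best known from macrophages, dendritic cells and neutrophils, although epithelial and stromal cells also carry some of them. TLR1, TLR2, TLR4, TLR5 and TLR6 act at the cell surface on bacterial products, and TLR3, TLR7, TLR8 and TLR9 act in endosomes on nucleic acids. Ligand binding brings in adaptors with a TIR domain: MyD88 serves all of these receptors except TLR3, which signals through TRIF, and kinases of the IRAK family then lead to NF-κB and interferon regulatory factors.

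Positions are given on GRCm38, the build of the expression values, from GENCODE M21. *Tlr1* (chr5:64924679-64933563) and *Tlr6* (chr5:64952031-64960097) lie side by side on the minus strand, and *Tlr8* (chrX:167242696-167264329) and *Tlr7* (chrX:167304929-167330558) likewise. *Tlr2* lies at chr3:83836272-83841767 and *Tlr3* at chr8:45395665-45411080 on the minus strand. *Tlr4* (chr4:66827584-66930284), *Tlr5* (chr1:182954788-182976044) and *Tlr9* (chr9:106222598-106226883) are on the plus strand, and *Myd88* (chr9:119335934-119341411) is on the minus strand. Of the exonic bases of *Myd88*, 290 overlap exons of *Acaa1a* on the opposite strand, and 381 of those of *Tlr3* overlap the antisense gene *Gm45542*. The strand setting of the counting is not given in the sources used here, so fragments from these overlaps cannot be told apart.

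*Tlr1* and *Tlr6* encode the alternative partners of TLR2 and share sequence. Of the 50-base windows of the longest *Tlr1* transcript, 454 of 2976 (15.3%) also occurred in a transcript of *Tlr6*, and 456 of 3628 (12.6%) of those of *Tlr6* occurred in another gene, 454 of them in *Tlr1*, whereas the longest identical stretch of the coding sequences of *Tlr7* and *Tlr8* was 13 bases. The longest stretch shared by the coding sequences of *Tlr1* (bases 1468 to 1696) and *Tlr6* (bases 1507 to 1735) is 229 bases and is shown because a fragment within it could come from either gene.

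*Tlr1* and *Tlr6* shared coding stretch: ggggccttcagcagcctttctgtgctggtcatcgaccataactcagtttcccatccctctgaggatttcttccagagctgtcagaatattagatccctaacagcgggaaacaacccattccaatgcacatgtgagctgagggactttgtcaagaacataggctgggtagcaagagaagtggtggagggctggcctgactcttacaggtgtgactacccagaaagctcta

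Values of these 2 genes are therefore uncertain to that extent.

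Promoter windows of RefSeq (GRCm38.p6), from 250 bases before to 50 bases after the start of transcription, were given for 8 of the 10 genes, in 10 windows, with none for *Tlr4* and *Tlr7*. They were searched on both strands for letters of the type bound by the myeloid factor PU.1 (GAGGAAGT), for 2 sites of NF-κB (GGGACTTTC and GGAATTTCC) and for the oestrogen response element. The PU.1 type letters were found in 2 of the 10 windows, against 3.2% of 32851 windows of all genes. They are in capitals in the *Tlr1* window (chr5:64933509-64933808, minus strand), where they end 15 bases before the start, and in the *Tlr9* window (chr9:106222348-106222647, plus strand), where they stand on the opposite strand at bases 11 to 18 of the transcript.

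*Tlr1* promoter: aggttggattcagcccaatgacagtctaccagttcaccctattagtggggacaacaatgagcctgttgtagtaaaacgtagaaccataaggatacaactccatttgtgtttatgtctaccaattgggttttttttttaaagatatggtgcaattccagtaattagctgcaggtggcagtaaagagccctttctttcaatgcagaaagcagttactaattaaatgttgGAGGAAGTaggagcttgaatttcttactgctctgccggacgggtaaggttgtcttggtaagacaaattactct
*Tlr9* promoter: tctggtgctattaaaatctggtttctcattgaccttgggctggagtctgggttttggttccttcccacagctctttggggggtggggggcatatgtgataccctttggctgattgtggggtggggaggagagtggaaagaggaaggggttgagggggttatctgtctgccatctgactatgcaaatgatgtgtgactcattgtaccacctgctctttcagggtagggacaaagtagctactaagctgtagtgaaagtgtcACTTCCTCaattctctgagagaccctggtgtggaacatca

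The NF-κB letters were in 0 of the 10 windows, against 0.353% and 0.317% of all windows, and the oestrogen response element was in 0, against 0.07%. Such matches describe letters in a window and were not tested as sites.

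In the WT SV without DES, *Myd88* was by far the most abundant of the 10 genes per length of transcript, and *Tlr3* and *Tlr4* were the main receptors. Mean FPKM in WT-veh was 33.2 ± 2.11 (SD, n = 4) for *Myd88*, 4.43 ± 0.640 for *Tlr3*, 3.81 ± 0.560 for *Tlr4* and 2.65 ± 0.343 for *Tlr2*. *Tlr3* and *Tlr4* overlapped in range, and *Tlr2* was below both in every sample. The other receptors had means of 0.795 (*Tlr5*), 0.66 (*Tlr1*), 0.53 (*Tlr7*), 0.32 (*Tlr6*), 0.253 (*Tlr9*) and 0.218 (*Tlr8*), and each overlapped its neighbour in this order.

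Neonatal DES in WT mice was followed at week 5 by higher levels of all 9 receptors and by nearly the same level of *Myd88*. Relative to WT-veh, 9 of the 10 genes were called higher in WT-DES, against 28.9% of all genes tested. *Tlr2*, *Tlr3*, *Tlr4*, *Tlr5* and *Myd88* also passed the minimum in a group other than WT-DES. Of these 5, 4 were called higher and *Myd88* was not, against 23.5% of the 14693 such genes in all. *Tlr5* passed elsewhere only in αERKO-veh, so in this comparison it could be called only through WT-DES. To be called, a gene needed a limma adjusted p of 0.05 or less, group means of FPKM that differed 1.5-fold or more, and a mean above 1 FPKM in a group compared. The median log2 change, here always the difference in mean log2(FPKM + 1), was 1.53 for the 10 genes and −0.01 for all genes tested. On this scale changes of genes with few FPKM are compressed, so the ratio of means is given beside it. The SV was sequenced as bulk tissue, in which more cells of a type and more RNA per cell cannot be told apart.

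Among the surface receptors, *Tlr2*, which recognises bacterial lipoproteins as a dimer with TLR1 or TLR6, had the highest level in WT-DES and the largest log2 change. It measured 2.66, 2.18, 2.75 and 3.0 FPKM in WT-veh and 17.22, 20.96, 19.32 and 14.66 FPKM in WT-DES. All WT-DES values were far above all WT-veh values, and the mean was 6.81-fold higher (log2 change 2.38, standard error 0.11, limma adjusted p = 6e-10). *Tlr1* was 0.67, 0.45, 0.72 and 0.80 in WT-veh and 4.54, 8.48, 9.60 and 4.59 in WT-DES, a 10.3-fold higher mean (log2 change 2.17, standard error 0.19, adjusted p = 1.36e-07). *Tlr6* was 0.44, 0.31, 0.26 and 0.27 in WT-veh and 4.88, 2.52, 2.49 and 1.76 in WT-DES, a 9.10-fold higher mean (log2 change 1.51, standard error 0.17, adjusted p = 1.86e-06). *Tlr1* was highest in WT-DES samples 2 and 3, whereas *Tlr6* was highest in sample 1.

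*Tlr4*, the receptor for lipopolysaccharide, was 3.80, 4.54, 3.70 and 3.18 in WT-veh and 9.93, 10.2, 8.01 and 9.62 in WT-DES. The groups did not overlap, and the mean was 2.48-fold higher (log2 change 1.12, standard error 0.13, adjusted p = 2.4e-06). *Tlr5*, the receptor for flagellin, was 0.91, 0.66, 0.69 and 0.92 in WT-veh and 2.41, 3.46, 2.51 and 2.66 in WT-DES. Again the groups were apart, with a 3.47-fold higher mean (log2 change 1.06, standard error 0.11, adjusted p = 8.15e-07).

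Of the endosomal receptors, *Tlr3*, which detects double-stranded RNA, changed least. It was 4.83, 5.12, 3.88 and 3.89 in WT-veh and 9.31, 10.8, 9.57 and 8.31 in WT-DES, a 2.15-fold higher mean without overlap (log2 change 0.95, standard error 0.11, adjusted p = 2.71e-06). *Tlr7*, a receptor for single-stranded RNA, was 0.67, 0.43, 0.54 and 0.48 in WT-veh and 3.50, 4.10, 4.23 and 2.48 in WT-DES, 6.75-fold higher on average (log2 change 1.57, standard error 0.13, adjusted p = 4.9e-08). Its neighbour on the X chromosome, *Tlr8*, was 0.32, 0.19, 0.22 and 0.14 in WT-veh and 2.52, 3.02, 2.93 and 1.81 in WT-DES, 11.8-fold higher (log2 change 1.54, standard error 0.12, adjusted p = 3.65e-08). Both had their lowest WT-DES value in sample 4. *Tlr9*, which detects unmethylated CpG DNA, was 0.37, 0.27, 0.17 and 0.20 in WT-veh and 2.76, 4.69, 4.75 and 2.49 in WT-DES. It had the largest ratio of means of the 10 genes, 14.5 (log2 change 1.86, standard error 0.16, adjusted p = 1.13e-07), and like *Tlr1* was highest in samples 2 and 3.

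*Myd88* was 33.1, 31.6, 31.9 and 36.2 in WT-veh and 34.4, 39.1, 35.8 and 39.5 in WT-DES. The ranges overlapped and the ratio of means was 1.12 (log2 change 0.16, 95% confidence interval 0.02 to 0.29, limma adjusted p = 0.0347), so that *Myd88* passed the threshold of p but not that of fold. This result depended on scaling: with all samples rescaled to equal totals without the 20 most abundant genes, the log2 change of *Myd88* was 0.58 (adjusted p = 2.4e-06) and it was called higher. That rescaling moved the median log2 change of all genes by 0.39, and the 9 receptors remained higher under this and the other scalings. With any 1 sample left out each receptor was still called, and the ratio of *Tlr6* was 7.05 without WT-DES sample 1.

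**Figure D1:**
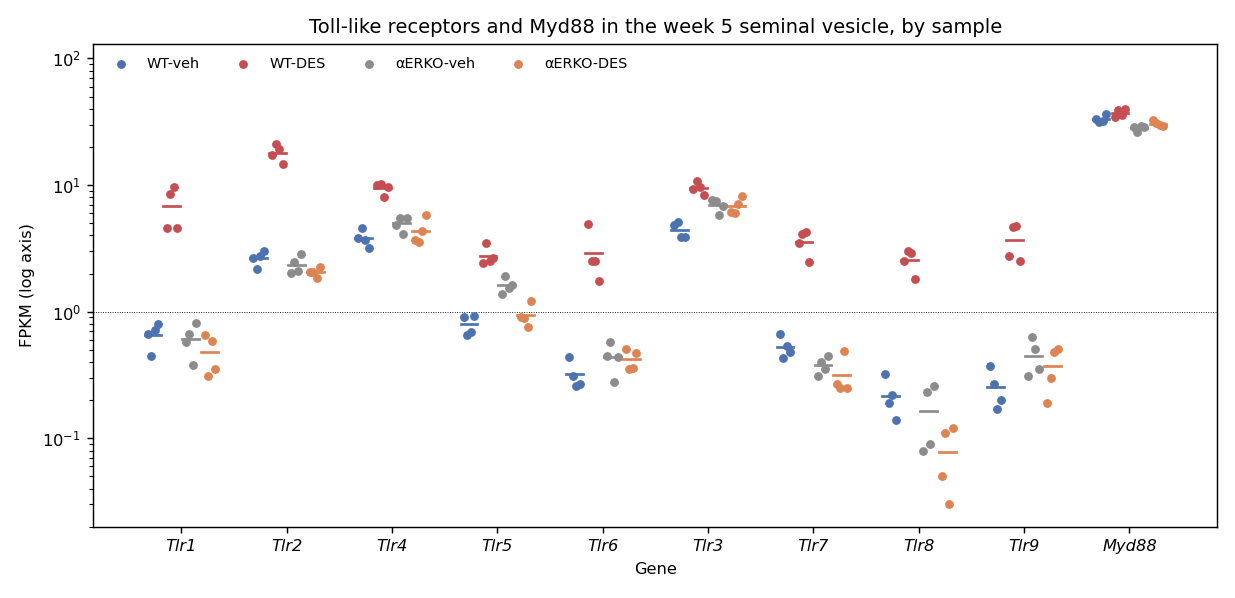
FPKM of each gene (log axis) in the 4 samples of each group, with a line at each group mean and a dotted line at 1 FPKM. The WT-DES points lie above those of WT-veh for all 9 receptors, as for 32.7% of all genes tested, from a 2.15-fold (*Tlr3*) to a 14.5-fold (*Tlr9*) higher mean, while the *Myd88* points of these groups overlap.

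The make-up of the receptors also shifted. The summed FPKM of the 9 receptors was 13.7 ± 0.895 (SD, n = 4) in WT-veh and 59.3 ± 8.57 (n = 4) in WT-DES, and in the αERKO mice it was 17.9 ± 2.07 with vehicle and 15.9 ± 2.38 with DES. *Tlr3* and *Tlr4* made up 54.9% to 68.3% of this sum in the WT-veh samples and 27.7% to 37.1% in WT-DES. *Tlr2* made up 15.4% to 23.3% in WT-veh and 30.2% to 30.7% in WT-DES, where it ranked above *Tlr3* and *Tlr4* in every sample. Per *Myd88*, the receptor sum ranged from 0.356 to 0.448 in WT-veh and was 1.22 to 1.77 in WT-DES.

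In mice without ERα, no receptor was called higher after DES, but only 5 of the 10 genes could have been called. Of the 10 genes, 0 were called by limma when αERKO-DES was set against αERKO-veh, compared with 1.49% of all genes tested, and 1 of them, *Tlr5*, passed an unadjusted p of 0.05, as did 25.3% of all genes. *Tlr1*, *Tlr6*, *Tlr7*, *Tlr8* and *Tlr9* had means under 1 FPKM in both αERKO groups and could not be called whatever their change. The count was thus 0 of 5 for the genes above the minimum there, against 1.65% of the 14489 such genes in all. The median log2 change was −0.10 for the 10 genes and 0.02 for all genes. The αERKO-veh samples had 2.02, 2.45, 2.10 and 2.83 FPKM of *Tlr2*, and the αERKO-DES samples 2.07, 2.07, 1.85 and 2.25 (log2 change −0.13, 95% confidence interval −0.37 to 0.12). For *Tlr4* these values were 4.81, 5.46, 4.10 and 5.52 with vehicle and 3.69, 3.55, 4.32 and 5.81 with DES (−0.17, interval −0.45 to 0.11). The ranges overlapped for both, as they did for every gene but *Tlr5*.

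*Tlr1* ranged from 0.38 to 0.81 with vehicle and from 0.31 to 0.66 with DES, *Tlr6* from 0.28 to 0.58 and from 0.35 to 0.51, and *Tlr9* from 0.31 to 0.63 and from 0.19 to 0.51. *Tlr7* was 0.31 to 0.45 and 0.25 to 0.49, and *Tlr8* 0.08 to 0.26 and 0.03 to 0.12. At such levels the pseudocount of 1 compresses any change, and intervals are given for this scale only. The highest upper limit of a 95% interval among the receptors was 0.36, for *Tlr6*, while the lowest lower limit in WT was 0.71, for *Tlr3*.

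*Tlr5* came nearest to a change in αERKO mice, downward. The vehicle samples had 1.39, 1.93, 1.54 and 1.63 FPKM and the DES samples 0.90, 0.89, 0.76 and 1.22, without overlap and with a ratio of means of 0.581 (log2 change −0.43, standard error 0.11, limma adjusted p = 0.0515). Of all genes tested, 6.57% were likewise lower without overlap. With a pseudocount of 0.1 the adjusted p of *Tlr5* was 0.0355 and the gene was called lower, and it was also called when sample 1 or 2 of WT-DES, sample 1 of αERKO-veh or sample 4 of αERKO-DES was left out. In the same comparison 4 of 6 skeletal muscle markers, 2 of 4 adipose markers (*Adipoq* and *Cidec*), the fibroblast gene *Dcn* and the endothelial gene *Tek* were called lower. The skeletal muscle markers summed to between 554 and 1509 FPKM with vehicle and 476 and 674 with DES, the adipose markers to 5.45 to 166 and 0.58 to 4.63, and the part of these cells in *Tlr5* was not tested.

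The log2 change with DES differed between the genotypes for all 9 receptors. The interaction, here the log2 change of WT after subtraction of the αERKO one, was called higher for 9 of the 10 genes, against 29.6% of all genes tested. The count cannot be read against that share, since 5 of the 9 entered the test only through their level in WT-DES. Of the 5 genes above the minimum in another group it was called for 4, with 24.7% of all such genes. It was 2.50 for *Tlr2* (standard error 0.16, limma adjusted p = 1.9e-08), 2.30 for *Tlr1* (0.27, 3.82e-06) and 1.95 for *Tlr9* (0.23, 3.59e-06), and lowest among the receptors for *Tlr3*, at 0.97 (0.16, 8.7e-05). For *Myd88* it was 0.05 (95% confidence interval −0.14 to 0.24, adjusted p = 0.642), but 0.60 (adjusted p = 6.96e-05) after rescaling to equal totals, which moved the median of all genes by 0.51.

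Without DES, loss of ERα was accompanied by higher *Tlr3* and *Tlr5*. Relative to WT-veh, these 2 of the 10 genes were called higher in αERKO-veh, against 4.5% of all genes tested, and none was called lower. The 5 genes under 1 FPKM in both groups could not be called. The median log2 change was 0.04 for the 10 genes and −0.02 for all. *Tlr3* was 7.56, 7.48, 5.84 and 6.89 in αERKO-veh, all above the WT-veh samples, with a 1.57-fold higher mean (log2 change 0.55, standard error 0.11, adjusted p = 0.00772). *Tlr5* had a 2.04-fold higher mean than in WT-veh, also without overlap, as for 12.6% of all genes tested (log2 change 0.55, standard error 0.11, adjusted p = 0.00765). Both missed the fold threshold when the fold was taken from the log2(FPKM + 1) difference, and *Tlr3* also missed it after quantile normalization and after correction for transcript length. *Myd88* was 28.6, 26.1, 29.4 and 28.9 in αERKO-veh, below every WT-veh sample, as for 17.1% of all genes tested. With a ratio of 0.851 it was not called (log2 change −0.22, standard error 0.06, adjusted p = 0.0208). *Tlr4* had a ratio of 1.31 with overlapping samples (adjusted p = 0.0922). Markers of other cell types also differed in this comparison. The endothelial genes *Kdr* and *Tek* (2 of 5 markers) and the skeletal muscle genes *Ckmt2* and *Tnnt3* (2 of 6) were called higher, and the macrophage genes *C1qa*, *C1qb* and *C1qc* (3 of 9) lower. The endothelial markers summed to between 63.9 and 71.8 FPKM in WT-veh and 67.1 and 107 in αERKO-veh, the skeletal muscle markers to 549 to 1311 and 554 to 1509, and the macrophage markers to 147 to 242 and 114 to 151. Their part in *Tlr3* and *Tlr5* was not tested.

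Between the DES-treated groups, 8 of the 10 genes were called lower in αERKO-DES than in WT-DES, against 29.6% of all genes tested. Of these 8, *Tlr1*, *Tlr6*, *Tlr7*, *Tlr8* and *Tlr9* were tested only because their WT-DES mean was above 1 FPKM, so that a lower value in αERKO-DES was built in. The count was 3 of 5 for the genes above the minimum in another group, against 3529 of 14693 such genes in all. Of these 3, *Tlr5* passed elsewhere only in αERKO-veh, which is not compared here. Its αERKO-DES mean was 0.943 FPKM, so that for *Tlr5* too a call could only be lower. This comparison shares its samples with the DES comparisons above. The ratio of means to WT-DES was 0.0302 for *Tlr8*, 0.0702 for *Tlr1*, 0.0881 for *Tlr7*, 0.101 for *Tlr9*, 0.114 for *Tlr2*, 0.145 for *Tlr6*, 0.341 for *Tlr5* and 0.461 for *Tlr4*. *Tlr3* (ratio 0.724, adjusted p = 0.00396) and *Myd88* (0.822, adjusted p = 0.00124) did not reach the threshold of fold. Their samples were lower without overlap, as for 32.7% of all genes tested. With equal totals both were called lower, *Tlr3* with a log2 change of −0.76 and *Myd88* of −0.65. After quantile normalization *Tlr5* was no longer called and *Myd88* was.

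*Tlr3* was also the 1 of the 10 genes called in αERKO-DES relative to WT-veh, against 1.21% of all genes called higher there, and 4 of the 10 were above the minimum in a group compared. It was 6.16, 6.06, 7.09 and 8.23 in αERKO-DES, all above WT-veh, as for 9.93% of all genes tested (ratio 1.55, log2 change 0.54, standard error 0.11, limma adjusted p = 0.0136). The call was lost without WT-veh sample 3, WT-veh sample 4 or αERKO-DES sample 4, with limma adjusted p of 0.0484, 0.0505 and 0.0512. In each case the ratio of means was under the threshold of fold, and only the first passed that of p. *Tlr5* had means of 0.94 FPKM in αERKO-DES and 0.795 in WT-veh, so it was not among these 4 genes and could not be called. Its samples overlapped, with a ratio of 1.19 (log2 change 0.11, standard error 0.11, limma adjusted p = 0.562). This does not show that the 2 levels were equal.

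**Figure D2:**
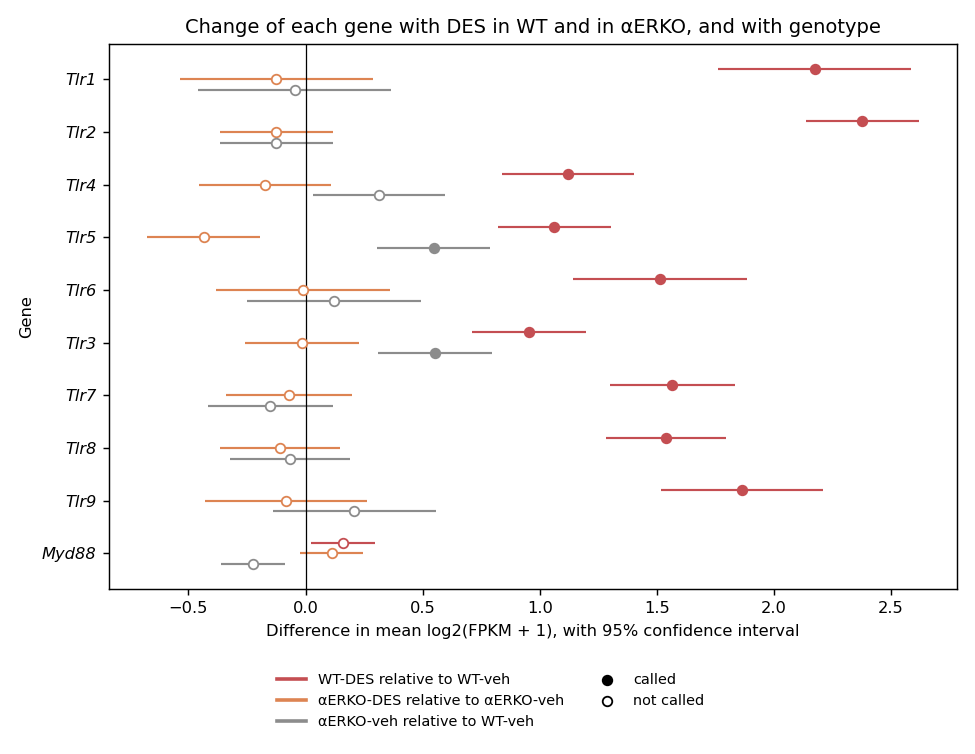
Difference in mean log2(FPKM + 1) of each gene with its 95% confidence interval, for DES in WT, DES in αERKO and genotype without DES, with filled points for called genes. In WT all 9 receptors lie at 0.95 or more and *Myd88* at 0.16, whereas with DES in αERKO no gene lies above 0.11, and *Tlr3* and *Tlr5* are both at 0.55 with genotype.

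*Tlr11*, *Tlr12* and *Tlr13*, the other Toll-like receptor genes of the mouse, were also higher with DES in WT. All 3 had a mean above 1 FPKM only in WT-DES and so had to differ. *Tlr13*, an endosomal receptor for bacterial ribosomal RNA, was 0.55, 0.38, 0.32 and 0.44 FPKM in WT-veh and 9.63, 4.54, 4.79 and 3.62 in WT-DES, 13.4-fold higher on average (adjusted p = 1.27e-07). *Tlr11* (ratio 12.7) and *Tlr12* (ratio 4.63) were also called higher, with adjusted p of 9.14e-06 and 3.69e-05, and both were highest in WT-DES samples 2 and 3. With DES in αERKO mice their adjusted p was 0.872 to 0.983, at levels too low for a call.

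Around the receptors, 68 genes of the pathway were listed by role, and 63 of them were tested. With DES in WT, 38 were called higher, 9 lower (3 with equal totals) and 16 not, against 28.9% of all genes higher and 23.9% lower, with a median log2 change of 0.98. Of the 63, 11 had a mean above 1 FPKM only in WT-DES and had to differ, among them *Cd180*, *Ticam2*, *Rel* and *Il1rl1*, against 8.1% of all genes tested. In αERKO mice DES was followed by 0 higher and 1 lower call, against 0.0876% and 1.41% of all genes. Of the 63 genes 52 could be called there, as the same 11 were under 1 FPKM in both αERKO groups. That gene, named after its values were seen, was *Cd36*, a scavenger receptor that aids TLR2 and is also abundant in fat, with an adjusted p of 0.0351. The adipose markers ranged lower in αERKO-DES, as given beside *Tlr5*, and their part in *Cd36* was not tested. The interaction was called for 37 higher and 9 lower genes, against 29.6% and 26.9% of all genes.

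The co-receptors and the proteins that pass ligand to the receptors were mostly higher, and chaperones of receptor folding were lower, of which *Hsp90b1* alone was called under every scaling. Of 10 tested, 7 were called higher and 3 lower (median log2 change 1.53), against 28.9% and 23.9% of all genes. The lower count is thus near the background, and of the 7 *Cd180* passed the minimum only in WT-DES. *Cd14*, which hands lipopolysaccharide to TLR4, was 10.1, 6.73, 8.33 and 8.06 in WT-veh and 75.7, 42.1, 26.2 and 38.8 in WT-DES, 5.50-fold higher (adjusted p = 6.31e-07). *Cd180* and *Ly86*, a TLR4-like receptor of B cells and its partner, rose 6.77-fold and 4.69-fold, both highest in samples 2 and 3. *Unc93b1*, which carries the nucleic acid receptors to endosomes, rose 2.53-fold to between 71.99 and 106.18 FPKM.

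*Ly96* encodes MD-2, the subunit of the TLR4 complex that binds lipopolysaccharide, and went the other way from *Tlr4*. It was 22.2, 19.6, 22.4 and 21.3 in WT-veh and 11.6, 13.6, 12.7 and 14.1 in WT-DES, lower without overlap as for 34.0% of all genes tested. Its mean was 1.64-fold lower (log2 change −0.68, standard error 0.12, adjusted p = 0.000135). Its call was lost with equal totals (−0.27) and after correction for transcript length (−0.09). *Hsp90b1* encodes gp96, a chaperone of the endoplasmic reticulum for most of these receptors and for secreted proteins, and fell 2.76-fold, from 368 to 455 FPKM in WT-veh to 136 to 166 in WT-DES (adjusted p = 1.58e-06). The third lower gene, named after its values were seen, was *Cnpy3*, its co-chaperone, with a ratio of 0.623, and its call was lost with quantile normalization, length correction and equal totals (log2 change −0.25 with the last), where *Hsp90b1* was still called (−1.02).

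Of 4 other TIR adaptor genes tested, 2 were called higher and 1 lower, against 28.9% and 23.9% of all genes. *Ticam1*, which encodes TRIF, the adaptor of TLR3, lay between 22.6 and 28.1 in WT-veh and was 10.2, 11.3, 12.5 and 11.9 in WT-DES, 2.21-fold lower (log2 change −1.08, standard error 0.09, adjusted p = 4.31e-08). Its bridging adaptor *Ticam2*, which links TRIF to TLR4, was 5.93-fold higher at 1.53 to 3.11 FPKM in WT-DES, and *Pik3ap1*, which encodes BCAP, was 2.34-fold higher. *Tirap*, the bridge from TLR2 and TLR4 to MyD88, had a ratio of 0.995 (log2 change −0.01, adjusted p = 0.936).

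Of 14 kinase and ubiquitin ligase genes tested, 2 were called higher, 2 lower and 10 not, and their median log2 change was 0.00. Among all genes 28.9% were called higher and 23.9% lower. The kinases of the MyD88 complex moved apart: *Irak4* was 1.77-fold higher (adjusted p = 9.72e-06) and *Irak2* 1.61-fold, whereas *Irak1* was 2.00-fold lower, from 70.3 to 78.7 FPKM in WT-veh to 34.7 to 41.0 in WT-DES (adjusted p = 3.73e-08). *Irak2* was 22.0 in WT-DES sample 1 and 13.2 to 13.6 in the others, and without sample 1 its log2 change was 0.44 and it was not called. *Chuk*, which encodes the kinase IKKα, was 1.94-fold lower. *Traf6*, the ubiquitin ligase next in the chain, had a ratio of 1.19 (adjusted p = 0.0601). With equal totals *Irak1* (−0.55) and *Chuk* (−0.50) lost their calls and *Traf6* was called higher (0.62).

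Of 8 transcription factor genes tested, 6 were called higher and 1 lower, where all genes gave 28.9% and 23.9%. *Rel*, the NF-κB subunit of lymphoid and myeloid cells, rose 6.35-fold to 1.85 to 3.31 FPKM. *Irf5* rose 4.67-fold and *Irf7* 3.62-fold, the latter to 26.3, 97.5, 71.5 and 36.6 FPKM in the 4 WT-DES samples, again highest in samples 2 and 3. *Nfkb1* was 1.61-fold higher (adjusted p = 5.02e-06), although after correction for transcript length it was not called. *Rela*, the most widely used NF-κB subunit, had a ratio of 0.970 (adjusted p = 0.652), and its sign turned with quantile normalization, equal totals and length correction. *Irf3*, which acts below TRIF, lay between 70.7 and 78.8 in WT-veh and between 36.2 and 37.4 in WT-DES, 2.04-fold lower (adjusted p = 2.49e-08).

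Of 10 negative regulators tested, 6 were called higher, 2 lower and 2 not, beside shares of 28.9% and 23.9% for all genes, so that the lower count is near the background. *Tnfaip3*, which encodes the ubiquitin-editing enzyme A20, rose 4.37-fold, *Dok3* 3.04-fold and *Socs1* 2.81-fold. *Sigirr*, a receptor-like inhibitor found in epithelia, fell 1.85-fold and *Tollip* fell 1.53-fold, and both calls were lost with equal totals. Of 6 interleukin receptor genes whose products signal through MyD88, 4 were called higher, against 28.9% of all genes. The largest rises were in *Il1rl1* (4.95-fold), *Il18rap* (4.56-fold) and *Il18r1* (2.93-fold). Of these, *Il1rl1* passed the minimum only in WT-DES.

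Cytokine and chemokine genes that these receptors can induce were called higher in 11 of 11 cases tested (median log2 change 2.25). Of all genes tested 28.9% were called higher, and 23.5% of those above the minimum outside WT-DES. Of these 11, 7 (*Tnf*, *Il1a*, *Il1b*, *Il12b*, *Cxcl1*, *Cxcl2* and *Ccl3*) had a mean above 1 FPKM only in WT-DES and had to differ, so the count follows in large part from the minimum. *Il6*, *Il10*, *Il12a* and *Ifnb1* stayed below the minimum in all groups and were not tested. *Il1b* was 0.30, 0.53, 0.23 and 0.51 in WT-veh and 67.0, 16.6, 16.5 and 16.1 in WT-DES (log2 change 4.14, standard error 0.34, adjusted p = 6.21e-08), and its ratio was 74.0 with sample 1 and 41.8 without it. *Cxcl2*, a chemokine for neutrophils, reached at most 0.20 in WT-veh and was 68.3, 1.80, 2.41 and 5.69 in WT-DES (log2 change 2.93, standard error 0.68, adjusted p = 0.00129), and its WT-DES mean fell from 19.6 to 3.30 when sample 1 was left out. *Il12b* reached at most 0.09 in WT-veh and was 0.46, 3.83, 1.37 and 0.87 in WT-DES (adjusted p = 0.000597), and its WT-DES mean was 0.90 without sample 2.

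**Figure D3:**
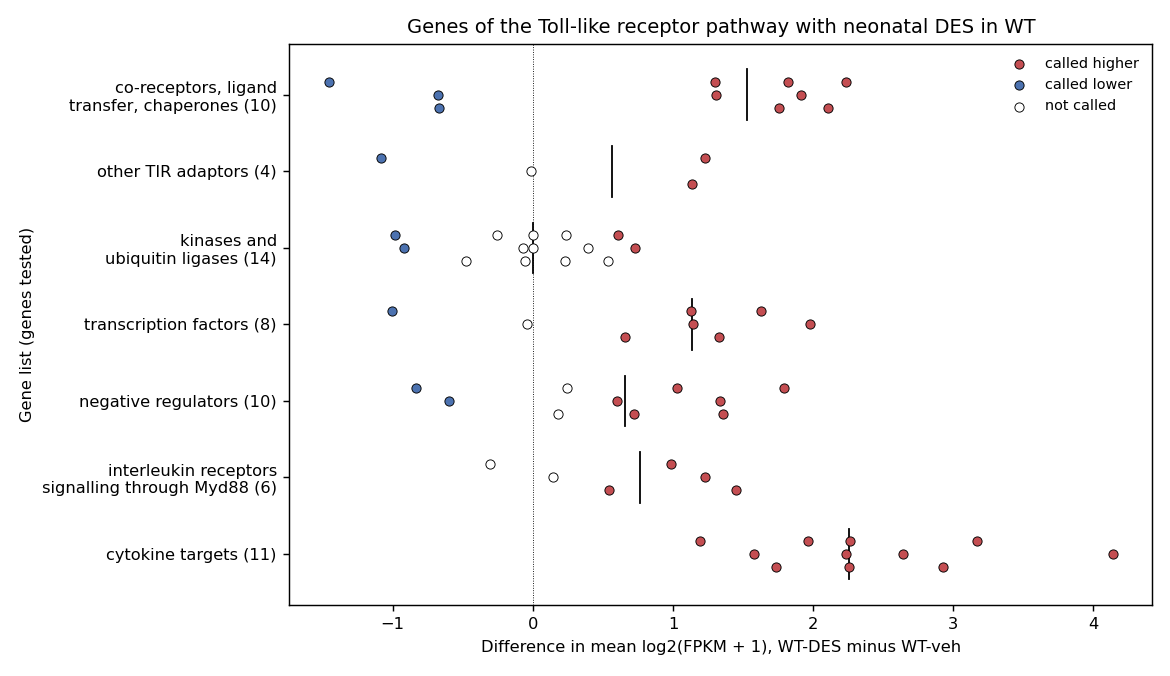
Difference in mean log2(FPKM + 1) between WT-DES and WT-veh for each of the 63 pathway genes tested, one row per list, with a black line at the median of the list. All 11 cytokine targets, of which 7 passed the minimum only in WT-DES, lie to the right of 0. The 14 kinases and ubiquitin ligases scatter about a median of 0.00.

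Markers of cells that carry Toll-like receptors moved with these changes. With DES in WT, 9 of 9 macrophage markers, 6 of 6 dendritic, 6 of 6 neutrophil, 6 of 6 T cell and 4 of 4 B cell markers tested were called higher, against 28.9% of all genes. All 4 B cell, 4 of the dendritic, 4 of the neutrophil and 2 of the T cell markers had a mean above 1 FPKM only in WT-DES and had to differ, and the B cell gene *Pax5* was below the minimum and not tested, whereas the macrophage markers passed in other groups too. The macrophage markers summed to between 147 and 242 FPKM in WT-veh and between 568 and 781 in WT-DES, and the neutrophil markers to 3.15 to 5.30 and 106 to 913. Of single markers, *Emr1* (F4/80) was at 3.15 to 5.05 in WT-veh and 20.2 to 29.3 in WT-DES, and *Csf1r* at 8.47 to 14.6 and 41.1 to 66.0. *S100a8* of neutrophils was at 0.69 to 2.25 and 44.7 to 371, and *Cd79a* of B cells at 0.04 to 0.20 and 0.66 to 5.77. With DES in αERKO mice, 0 of the 31 markers of these 5 cell types were called, against 1.49% of all genes. For 18 of them, among them every neutrophil and B cell marker, both means were under 1 FPKM and no call was possible, which leaves 0 of 13, 8 of these being macrophage markers. The markers called lower there were the 4 skeletal muscle genes (*Ckmt2*, *Myh4*, *Myl3* and *Tnnt3*), *Adipoq*, *Cidec*, *Dcn* and *Tek*. Fibroblast (6 of 6) and endothelial (5 of 5) markers were also higher with DES in WT, as were 4 of 4 adipose markers, of which *Lep* was above 1 FPKM only there. Of 6 epithelial markers 4 were lower, among them *Krt8* at 175 to 207 in WT-veh and 96.1 to 161 in WT-DES, whereas *Krt5* was called higher, at 52.1 to 69.1 and 67.7 to 208, and *Cdh1* was not called. Lower calls also came from 7 of 7 SV secretory, 4 of 5 smooth muscle and 2 of 6 skeletal muscle markers. WT-DES sample 1 stood apart in the smooth muscle sum, with 2938 FPKM against 735 to 1119 in the other samples of that group and 2580 to 3136 in WT-veh. The part of these cells in the receptor changes was not tested.

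*Ptprc*, the gene for the leukocyte antigen CD45, was 3.80, 2.53, 2.16 and 1.77 in WT-veh and 22.1, 43.5, 41.7 and 21.5 in WT-DES, 12.6-fold higher. The other leukocyte markers had ratios of 9.11 (*Cd53*), 5.94 (*Coro1a*), 5.61 (*Laptm5*), 0.915 (*Lcp1*) and 0.155 (*Cd52*). *Cd52* fell from 2919 to 452 FPKM and made up 96.0% to 96.7% of the sum of the 6 markers in WT-veh, so that their mean was 504 FPKM in WT-veh and 122 in WT-DES and did not follow the other markers. *Cd52* is also made by epithelia of the male tract, so that this mean cannot be taken as a measure of leukocytes. Per mean of all 6, the 10 genes were 4.79-fold (*Myd88*) to 59.3-fold (*Tlr9*) higher in WT-DES.

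Without *Cd52* alone, left out after its values were seen, the ratios were 5.48 for *Tlr9*, 4.56 for *Tlr8*, 3.77 for *Tlr1*, 3.64 for *Tlr6*, 2.59 for *Tlr2* and 2.57 for *Tlr7*, each without overlap. *Tlr5* (1.34), *Tlr4* (0.977) and *Tlr3* (0.8293) overlapped and *Myd88* was at 0.439. These values moved again with the choice of markers. Without *Cd52* and *Lcp1*, also left out after their values were seen, the mean of the other 4 leukocyte markers was 6.56-fold higher in WT-DES. Per mean of these 4, *Tlr9* was 2.21-fold and *Tlr8* 1.83-fold higher in WT-DES without overlap, whereas *Tlr1* (1.51), *Tlr6* (1.48), *Tlr2* (1.04) and *Tlr7* (1.03) overlapped between the groups. *Tlr5*, *Tlr4*, *Tlr3* and *Myd88* were lower per leukocyte marker, with ratios of 0.545, 0.388, 0.331 and 0.176 and no overlap. These ratios are descriptions, with no test.

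The WT-DES samples differed among themselves in which receptors were high, and the markers of leukocyte types differed with them. Sample 1 had the highest *Tlr6* (4.88) and *Tlr13* (9.63), and its neutrophil markers summed to 913 FPKM, against 108, 106 and 227 in samples 2, 3 and 4. Samples 2 and 3 had the highest *Tlr1*, *Tlr2*, *Tlr7*, *Tlr8* and *Tlr9*, and also the highest *Tlr3* (10.83 and 9.57, against 9.31 and 8.31 in samples 1 and 4). In these 2 samples the T cell markers summed to 112 and 104, against 23.1 and 31.5 in samples 1 and 4, and the dendritic markers to 39.3 and 35.5, against 15.2 and 22.5. The macrophage markers summed to 781 and 774 there, against 590 and 568. *Tlr4* was 8.01 to 10.2 over the 4 samples and did not follow either pattern. With 4 samples these associations were not tested.

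**Figure D4:**
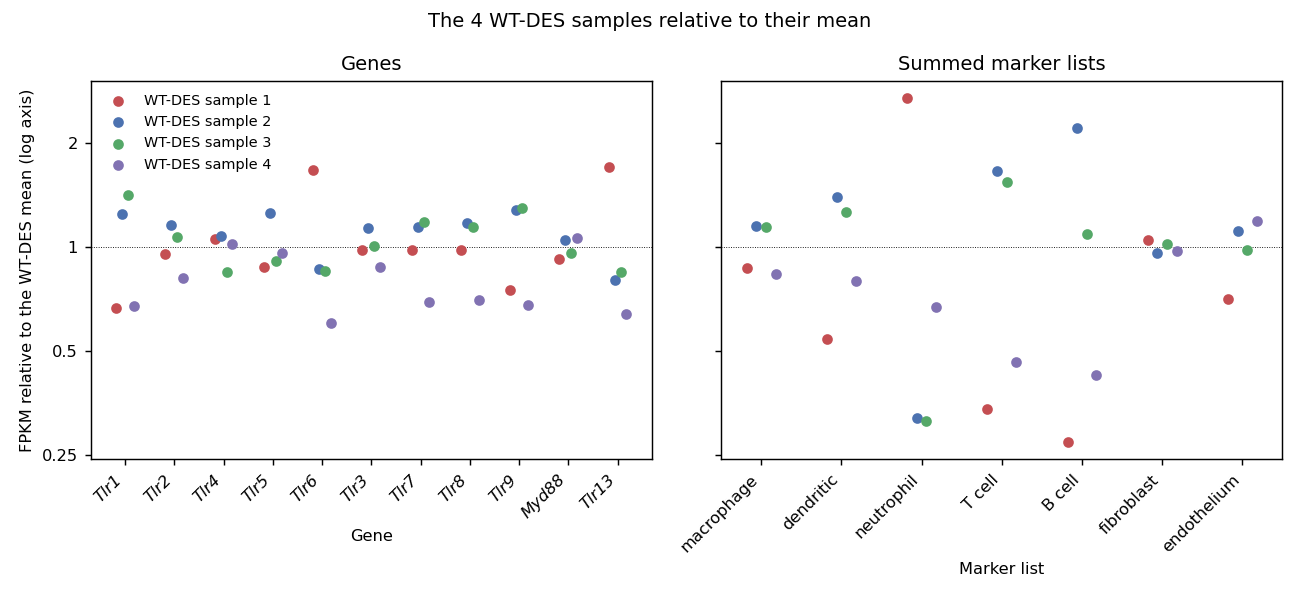
FPKM of each gene (left) and summed FPKM of each marker list (right) in the 4 WT-DES samples, divided by the mean of these samples (log axis), 1 colour per sample. Sample 1 stands highest for *Tlr6*, *Tlr13* and the neutrophil markers, and samples 2 and 3 for *Tlr1*, *Tlr9* and the macrophage, dendritic, T cell and B cell markers.

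The genes were compared with 12458 other genes that reached a mean of 5 FPKM in a group, by Pearson's r of log2(FPKM + 1) over the 16 samples. These values are descriptions, since the 4 groups and their differences are shared by all genes, and r of the deviations from the group means is given second. *Tlr8* was most like *Myo1f* (r = 0.99 and 0.84), *Tlr9* most like *Cybb*, the phagocyte oxidase subunit (0.99 and 0.90), and *Tlr1* most like *Cd300a*, an inhibitory receptor of leukocytes (0.99 and 0.92). *Tlr6* was most like *Irg1*, an enzyme gene induced in macrophages (0.99 and 0.92), with *Tlr13* next (0.99 and 0.90), and *Tlr2* most like *Dlk1* (1.00 and 0.67). The second nearest genes were *Aoah* for *Tlr1*, *Apobr* for *Tlr2*, *Arhgap30* for *Tlr8* and *Gsap* for *Tlr9*.

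The genes most like *Tlr3*, *Tlr4*, *Tlr5* and *Myd88* were at higher levels in WT-veh. *Tlr4* was most like *Ext1*, an enzyme of heparan sulphate synthesis (0.98 and 0.83), *Tlr5* most like *Egfr*, the epidermal growth factor receptor (0.98 and 0.85), *Tlr3* most like *Wrn*, a DNA helicase (0.96 and 0.86), and *Myd88* most like *Trp53* (0.95 and 0.74). *Sppl2a*, *Uaca*, *Asxl1* and *Rhoc* came second for *Tlr4*, *Tlr5*, *Tlr3* and *Myd88*. *Ext1*, *Egfr*, *Wrn* and *Trp53* had mean FPKM of 11.9, 4.54, 3.14 and 29.9 in WT-veh. *Cd300a*, *Irg1*, *Dlk1*, *Myo1f* and *Cybb* were at 0.488, 0.01, 0.193, 1.58 and 2.315 there. The latter genes, and *Wrn*, reached a mean of 5 FPKM only in WT-DES, so their lower levels elsewhere follow in part from that minimum.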

How the data were processed

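RNA from the SVs of 16 mice or pools, in 4 groups of 4 samples, was sequenced on an Illumina HiSeq. The authors aligned reads to the mouse genome (mm10) with TopHat2 (2.0.4) and estimated FPKM per gene with Cufflinks (2.0.2), and deposited the FPKM values with 2 decimals. The annotation, the scaling of libraries and the strand setting are not given in the sources used here. No counts were used, so count tests, intervals from counts and detection limits were not possible.

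Samples were grouped by their labels. In the present work log2(FPKM + 1) of the 15988 genes with a mean above 1 FPKM in at least 1 group was fitted with limma (3.58.1, R 4.3.3) in one model with a mean for each of 4 groups and a variance trend, and 5 comparisons and the genotype by DES interaction were taken from it with Benjamini-Hochberg adjustment over all these genes. Genes were called at an adjusted p of 0.05 with mean FPKM 1.5-fold apart. Every limma p is two-sided. The steps were tested on simulated data. Replicate columns were compared and 0 pairs were identical. Numbers of samples in the labels did not pair samples across groups.

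The 10 genes, the pathway lists and the markers were chosen with earlier results of these data known. All 10 genes and *Esr1* were named by value, as were, per pathway list, up to 3 genes called higher and up to 2 called lower, taken by the size of their ratio with DES in WT. *Ly96*, *Cd14*, *Unc93b1*, *Tirap*, *Ticam1*, *Irak4*, *Traf6*, *Nfkb1* and *Rela* were named whatever their values, with 7 marker genes and the 2 genes nearest to each of the 10 by correlation, of which those of *Tlr7* are not reported here. Alternatives changed the pseudocount (0.1), the minimum (none, or 5), the fold, the samples in the model, the variance trend, sample weights, a replicate block, the scaling (median ratio, quantile, equal totals without the 20 most abundant genes), the threshold (0.01), a correction for transcript length, and left out each sample in turn. Leukocyte markers without *Cd52* and *Lcp1*, and the same alternatives for pathway genes, were added after seeing the data. Loci came from GENCODE M21. Tables and plots were made with pandas 2.3.3, numpy 2.4.6 and matplotlib 3.10.9 in Python 3.11.15.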

Additional observations from a re-analysis of the deposited data

Results flagged for a closer look

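For 9 of the 10 genes the log2 change with DES differed between WT and αERKO mice by the limma interaction. Of all genes tested, 29.6% were called higher in it. The count cannot be read against that share, since 5 of the 9 were tested only through their level in WT-DES. The WT change exceeded the αERKO change, in log2 units, by 2.30 for *Tlr1*, 2.50 for *Tlr2*, 0.97 for *Tlr3*, 1.29 for *Tlr4*, 1.496 for *Tlr5*, 1.52 for *Tlr6*, 1.64 for *Tlr7*, 1.65 for *Tlr8* and 1.95 for *Tlr9*.

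Groups of 4 samples were also searched for 1 sample far from the rest, and 4 of 108 groups had one, where chance gives about 1 in 20. In αERKO-DES, *Tlr7* was 0.49 FPKM in sample 3 and 0.25 to 0.27 in the others. WT-DES sample 1 was the far sample in the other 3 groups, with 68.3 FPKM of *Cxcl2*, 67.0 of *Il1b* and 22.0 of *Irak2*. The neutrophil markers were also highest in that sample, and their part in these values was not tested.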

How the results depend on the processing

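The 9 receptor calls with DES in WT, the 9 calls of the interaction and the 8 calls between αERKO-DES and WT-DES did not change when samples were left out in turn (9 to 9, 9 to 9 and 8 to 8). With a mean above 5 FPKM required, 5 of the 10 genes were tested, and the counts were 4, 4 and 3, with 1 for αERKO-veh against WT-veh. Other settings gave 9 or 10 calls with DES in WT. The numbers of samples did not pair them (3 of 24 pairs of groups and numbers with r above 0.1, own number highest in 8 of 48), and a replicate block gave 9 calls with DES in WT and 0 in αERKO.

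With DES in αERKO, the count of 0 became 1, *Tlr5*, with a pseudocount of 0.1, without variance trend, with sample weights and with length correction, and was 0 to 1 with samples left out. For αERKO-veh against WT-veh the count of 2 became 0 with the fold from the log2 difference, and 1, *Tlr5*, with quantile normalization and with length correction, and was 2 to 2 with samples left out. For αERKO-DES against WT-veh the count of 1 became 0 with the fold from the log2 difference and with an adjusted p of 0.01, and was 0 to 1 with samples left out. The cause was not tested.

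Signs turned for log2 changes near 0. With DES in αERKO, quantile normalization gave 0.062 for *Tlr1*, 0.083 for *Tlr2*, 0.065 for *Tlr3*, 0.17 for *Tlr6*, 0.090 for *Tlr7* and 0.084 for *Tlr9*, equal totals −0.016 for *Myd88*, and length correction 0.014 for *Tlr3*. Leaving out samples gave −0.092 to 0.037 for *Tlr3* and −0.067 to 0.034 for *Tlr6*. For αERKO-veh against WT-veh, sample weights gave 0.10 for *Tlr1*, 0.048 for *Tlr2* and 0.013 for *Tlr8*, equal totals 0.027 for *Tlr1* and 0.0072 for *Tlr2*, length correction 0.0095 for *Tlr1*, and leaving out samples −0.11 to 0.025 for *Tlr1*.

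With DES in WT, equal totals left 3 of the 9 lower calls of pathway genes. *Rela* was 0.33 with quantile normalization, 0.38 with equal totals and 0.053 with length correction, *Tirap* 0.37 with equal totals and −0.082 to 0.064 with samples left out, and *Traf6* −0.082 with length correction. *Tollip* was not called with quantile normalization (−0.34) or without WT-DES sample 2. Relative to leukocyte markers, the log2 ratio of WT-DES to WT-veh turned without *Cd52* for *Tlr4* (−0.034), *Tlr3* (−0.27) and *Myd88* (−1.19), and without *Cd52* and *Lcp1* for *Tlr4* (−1.37), *Tlr5* (−0.88), *Tlr3* (−1.60) and *Myd88* (−2.50).

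Of all genes, 4613 were called higher and 3815 lower with DES in WT, against 6953 and 1831 with equal totals and 3671 and 3935 with quantile normalization. Depth is unknown, and values under 1 FPKM, as for 6 receptors in WT-veh, limit what a change in αERKO could show on this scale. Genotype and origin of the litters cannot be told apart, nor can cell number and RNA per cell.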
